A study of Arabidopsis thaliana with 48 samples.

Results

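The transcripts described here come from 7 genes of Arabidopsis thaliana that make, decorate and carry anthocyanins, the red and purple pigments of leaves and stems. They are DFR (AT5G42800), LDOX (AT4G22880, also called ANS), UGT78D2 (AT5G17050), UGT79B1 (AT5G54060, also called UF3GT), UGT75C1 (AT4G14090), 5MAT (AT3G29590) and GSTF12 (AT5G17220, also called TT19). They were chosen by locus and known role, but with earlier results of these data known. Each matched 1 of the 26988 rows of the deposited count table. All 7 passed the filter on low counts.

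RNA sequencing was done on 48 libraries from the aerial parts of 3-week-old plants of 3 genotypes, all of the Columbia ecotype. These were gi-2, a mutant in GIGANTEA (GI), which acts in the circadian clock and in day-length flowering, aba1-6, a mutant in ABA1, an enzyme of abscisic acid (ABA) synthesis, and wild-type Col-0 (wt). Each genotype was grown under drought, with soil held at a relative water content of 30% from soon after germination, and under normal watering, with 80 to 90%. The light cycle was a short day, with 8 h of light and then 16 h of darkness, but at harvest the lamps stayed on past hour 8. Samples were taken 1, 8, 12 and 16 h after lights-on (zeitgeber time, ZT1 to ZT16), so ZT12 and ZT16 fell in the added light, and time of day and added light cannot be told apart. Each of the 24 groups had 2 biological replicates, and each library pooled about 50 seedlings from 3 pots.

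As background, anthocyanins arise from a side branch of flavonoid synthesis. DFR reduces dihydroflavonols and LDOX turns the products into coloured anthocyanidins. UGT78D2 then adds glucose at the 3 position, which it also does for flavonols. UGT79B1 adds xylose to that glucose, UGT75C1 adds glucose at the 5 position, and 5MAT adds a malonyl group to this second glucose. GSTF12 binds the pigment on its way to the vacuole. In Arabidopsis seedlings, complexes of a MYB factor such as PAP1 or PAP2, a bHLH factor such as TT8, GL3 or EGL3, and TTG1 switch on the late genes of the pathway. MYB11, MYB12 and MYB111 act on early and flavonol genes. Drought, strong light and sugar are known to raise the pigment.

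The genes lie on 3 chromosomes in the RefSeq annotation of TAIR10.1, the same assembly as the TAIR10 build of the processing notes. DFR lies at chr5:17164093-17166032, UGT78D2 at chr5:5607788-5609589 and UGT79B1 at chr5:21936746-21938396, all on the minus strand. GSTF12, at chr5:5658416-5659661, is on the plus strand. LDOX lies at chr4:12004726-12006209, UGT75C1 at chr4:8122188-8123835 and 5MAT at chr3:11398592-11400332, all on the minus strand. UGT75C1 shares 230 bases with AT4G14100 and 217 bases with the noncoding gene AT4G06175, and GSTF12 shares 108 bases with AT5G17230. These neighbours are on the opposite strand, and whether the counting used strand is not given in the sources used here, so reads from the shared bases could not be assigned with certainty.

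The 180 bases before the annotated start of 5 of the genes, from RefSeq (TAIR10.1), are shown because each holds the G-box or the stretch CCACCGGT. They are printed 5′ to 3′ on the strand of the gene, and the capitals mark the palindromic G-box CACGTG, which bHLH and bZIP factors are known to bind, and the 8-letter stretch CCACCGGT. The windows are chr5:17166033-17166212 for DFR, chr4:12006210-12006389 for LDOX, chr4:8123836-8124015 for UGT75C1, chr5:21938397-21938576 for UGT79B1 and chr3:11400333-11400512 for 5MAT, all on the minus strand.
DFR promoter: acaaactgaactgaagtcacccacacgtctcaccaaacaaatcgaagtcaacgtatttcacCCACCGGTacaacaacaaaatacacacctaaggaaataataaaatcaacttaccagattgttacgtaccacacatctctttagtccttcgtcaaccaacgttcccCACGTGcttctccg
LDOX promoter: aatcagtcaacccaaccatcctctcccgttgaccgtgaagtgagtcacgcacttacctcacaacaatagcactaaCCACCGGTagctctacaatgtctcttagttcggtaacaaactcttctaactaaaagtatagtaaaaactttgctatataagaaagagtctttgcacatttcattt
UGT75C1 promoter: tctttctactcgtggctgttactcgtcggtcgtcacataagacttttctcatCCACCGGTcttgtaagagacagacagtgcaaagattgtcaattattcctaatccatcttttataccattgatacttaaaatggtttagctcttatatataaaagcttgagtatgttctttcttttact
UGT79B1 promoter: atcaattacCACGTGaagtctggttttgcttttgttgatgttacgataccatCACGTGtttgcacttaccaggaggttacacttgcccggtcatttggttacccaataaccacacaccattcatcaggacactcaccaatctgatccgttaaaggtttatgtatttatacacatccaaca
5MAT promoter: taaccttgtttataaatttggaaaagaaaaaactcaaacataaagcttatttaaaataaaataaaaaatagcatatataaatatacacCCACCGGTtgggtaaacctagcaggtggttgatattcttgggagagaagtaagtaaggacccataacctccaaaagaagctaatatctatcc

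In windows of 250 bases before the start, searched on both strands, CCACCGGT stood in 4 of the 7 promoters and in 62 of 27443 promoters of all genes (0.226%). It began 119 bases before the start of DFR, 105 before LDOX, 128 before UGT75C1 and 92 before 5MAT, each time on the strand of the gene. None of the other pathway genes counted further down had it. The stretch was picked after the 7 sequences had been read, so its count is a description with no test. The G-box stood in DFR and UGT79B1 (6.49% of all promoters). The shorter core ACGTG, which overlaps it, was found in the same 2 members (22.9%), and the E-box CANNTG, which also contains the G-box, in DFR, UGT79B1, 5MAT and GSTF12 (55.3%). Of the AC elements known from MYB targets, ACCAACC was found in UGT75C1 (2.69%), and ACCTACC (1.16%) and ACCTAAC (2.46%) in none of the 7. The evening element AAAATATCT, a clock-related letter run, was found in none of them either (2.36%).

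Library totals ran from 1920012 to 26925706 counts (median 8778260), and the 2 shallowest were wt normal ZT12 replicate 1 and wt drought ZT16 replicate 2. Levels are given in CPM, the counts of a gene scaled to a common library total, after each total was multiplied by its TMM scaling factor. GI transcripts remained in gi-2 but with another daily course: under normal watering gi-2 averaged 35.7, 140.1, 104 and 51.99 CPM from ZT1 to ZT16, against 72.5, 301, 63.4 and 12.5 CPM in wt. ABA1 transcripts also remained in aba1-6. Replicate 2 of gi-2 drought ZT16 is called gi-2 by its title and wt by its genotype tag; its GI level of 56.1 CPM lay near the 54.2 CPM of its partner, against 22.8 and 13.9 CPM in wt drought ZT16, and it was kept in gi-2. The summed level of 4 leaf genes (RBCS1A, CAB3, LHCA3, STOMAGEN) was 14080 to 31340 CPM. The root-hair genes COBL9, EXPA7 and RHD6 and the seed-coat genes BAN, TT2, TT10 and TT12 had medians of 0 CPM over the 48 libraries. Of the other root genes PYK10 had 393.5 to 1343 CPM (median 734), NRT2.1 0 to 24.98 (median 5.02), CASP1 0.0926 to 4.73 (median 1.14) and WOX5 0 to 3.13 (median 0.640). The summed level of the 7 root genes was 396 to 1288 CPM in gi-2 drought, 591 to 1015 in aba1-6 drought, 546 to 869 in wt drought, 680 to 1228 in gi-2 normal, 552 to 1355 in aba1-6 normal and 624 to 831 in wt normal.

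Transcripts of the branch were highest late in the added light and in droughted wt. DFR, the entry enzyme, had 6.27 and 10.8 CPM at ZT1, 18.5 and 8.58 CPM at ZT8, 13.5 and 32.1 CPM at ZT12 and 37.2 and 43.3 CPM at ZT16 in the 2 libraries of gi-2 drought. In gi-2 with normal watering DFR had 12.7 and 15.5 CPM at ZT1, 13.3 and 5.29 CPM at ZT8, 10.1 and 8.44 CPM at ZT12 and 13.98 and 16.6 CPM at ZT16. In aba1-6 drought it had 14.4 and 15.03 CPM at ZT1, 9.395 and 24.4 CPM at ZT8, 72.4 and 49.9 CPM at ZT12 and 167 and 141 CPM at ZT16. The gi-2 libraries with normal watering stayed between 5.29 and 16.6 CPM at every time, while both droughted groups had their highest values at ZT16. In aba1-6 with normal watering the DFR values were 29.8 and 10.9 CPM at ZT1, 11.2 and 4.89 CPM at ZT8, 23.99 and 40.4 CPM at ZT12 and 98.4 and 76.7 CPM at ZT16. In wt drought DFR had 26.7 and 35.5 CPM at ZT1, 45.6 and 39.4 CPM at ZT8, 180.2 and 150.1 CPM at ZT12 and 430.4 and 361 CPM at ZT16. In wt with normal watering it had 30.1 and 17.3 CPM at ZT1, 9.56 and 9.53 CPM at ZT8, 39.6 and 64.4 CPM at ZT12 and 142 and 55.99 CPM at ZT16. Both libraries of wt drought ZT16 stood above all other 46 for DFR.

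UGT75C1, the 5-glucosyltransferase, had closer replicates. In gi-2 drought it had 7.86 and 7.42 CPM at ZT1, 15.6 and 13.3 CPM at ZT8, 19.8 and 27.2 CPM at ZT12 and 29.5 and 33.2 CPM at ZT16, and 10.4 and 9.98 CPM at ZT1, 11.6 and 9.01 CPM at ZT8, 14.7 and 9.25 CPM at ZT12 and 12.98 and 18.2 CPM at ZT16 in gi-2 with normal watering. In aba1-6 it had 14.6 and 17.5 CPM at ZT1, 15.1 and 22.5 CPM at ZT8, 53.2 and 38.8 CPM at ZT12 and 89.7 and 90.5 CPM at ZT16 under drought, and 16.5 and 13.03 CPM at ZT1, 14.2 and 10.2 CPM at ZT8, 22.3 and 30.3 CPM at ZT12 and 57.2 and 52.8 CPM at ZT16 under normal watering. In wt it had 27.99 and 33.3 CPM at ZT1, 35.3 and 39.9 CPM at ZT8, 134 and 108 CPM at ZT12 and 255 and 270.4 CPM at ZT16 under drought, and 16.7 and 16.3 CPM at ZT1, 9.34 and 10.7 CPM at ZT8, 32.8 and 49.4 CPM at ZT12 and 94.7 and 43.1 CPM at ZT16 under normal watering. The droughted wt libraries were the highest of all at each of the 4 times.

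UGT78D2, the 3-glucosyltransferase shared with flavonols, was lowest at ZT8 in every group and was high at ZT1 as well as late in the day. In gi-2 drought it had 73.7 and 92.2 CPM at ZT1, 29.1 and 26.5 CPM at ZT8, 34.4 and 47.1 CPM at ZT12 and 51.3 and 60.9 CPM at ZT16, and 69.96 and 73.5 CPM at ZT1, 21.97 and 18.9 CPM at ZT8, 28.2 and 25.9 CPM at ZT12 and 38.3 and 38.2 CPM at ZT16 in gi-2 with normal watering. In aba1-6 they were 55.1 and 55.4 CPM at ZT1, 12.4 and 18.5 CPM at ZT8, 57.7 and 49.98 CPM at ZT12 and 110.3 and 124 CPM at ZT16 under drought, and 44.1 and 36.2 CPM at ZT1, 13.7 and 11.3 CPM at ZT8, 40.3 and 40.2 CPM at ZT12 and 94.3 and 82.8 CPM at ZT16 under normal watering. In wt they were 96.03 and 102 CPM at ZT1, 36.2 and 32.3 CPM at ZT8, 141 and 121 CPM at ZT12 and 255 and 224 CPM at ZT16 under drought, and 80.8 and 63.99 CPM at ZT1, 18.7 and 18 CPM at ZT8, 61.99 and 67 CPM at ZT12 and 156 and 109.8 CPM at ZT16 under normal watering. In gi-2 the ZT1 libraries were the highest of the day under both waterings, while in aba1-6 and wt the ZT16 libraries were.

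The other 4 members were also highest in the ZT16 libraries of wt drought. LDOX, the second enzyme of the branch, had 37.8 and 42.1 CPM at ZT16 in gi-2 drought, 167 and 136 in aba1-6 drought and 383 and 363 in wt drought. With normal watering LDOX had 14.3 and 19.3 CPM at ZT16 in gi-2, 83.5 and 76.2 in aba1-6 and 129 and 63.6 in wt. The droughted wt pair was thus above all others, and the gi-2 pair with normal watering below all others. GSTF12, the carrier protein, had 24.4 and 20.7 CPM at ZT16 in gi-2 drought, 63.7 and 54.3 in aba1-6 drought and 178 and 192 in wt drought. With normal watering it had 7.403 and 8.73 CPM at ZT16 in gi-2, 36.2 and 31.9 in aba1-6 and 62.4 and 35.8 in wt. The same pairs were highest and lowest as for LDOX. The xylosyltransferase gene UGT79B1 spanned 2.33 to 20.2 CPM (median 9.795 CPM) over the 8 libraries of gi-2 drought, 5.34 to 57.9 CPM (median 16.1 CPM) in aba1-6 drought and 9.98 to 169 CPM (median 43.99 CPM) in wt drought. With normal watering UGT79B1 spanned 1.68 to 8.73 CPM (median 6.15 CPM) in gi-2, 3.56 to 29.4 CPM (median 10.02 CPM) in aba1-6 and 5.35 to 64.9 CPM (median 15.8 CPM) in wt. The gi-2 median was the lowest and the wt median the highest under each watering. The malonyltransferase gene 5MAT, the lowest of the 7 by its mean in each genotype and watering, spanned 2.09 to 8.46 CPM (median 5.42 CPM) in gi-2 drought, 3.41 to 26.1 CPM (median 7.696 CPM) in aba1-6 drought and 8.41 to 55.7 CPM (median 21.3 CPM) in wt drought. With normal watering 5MAT spanned 1.08 to 6.12 CPM (median 3.4 CPM) in gi-2, 2.096 to 15.2 CPM (median 5.81 CPM) in aba1-6 and 3.56 to 31.1 CPM (median 10.9 CPM) in wt.

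**Figure D1:**
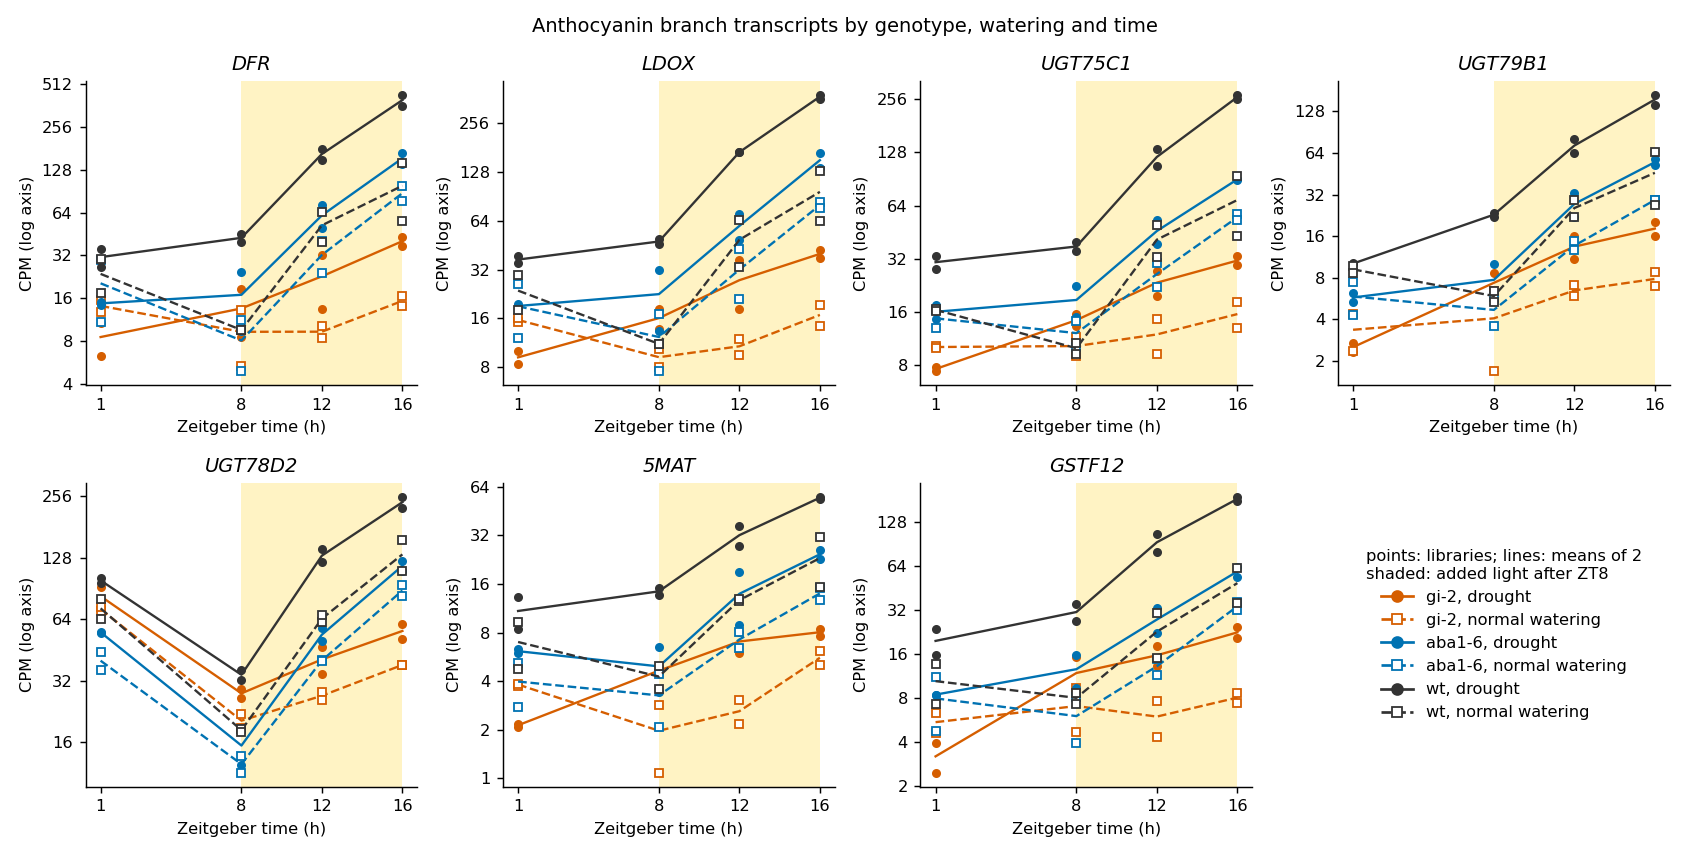
Level of each of the 7 transcripts in CPM (log axis) against zeitgeber time in hours; points are single libraries, lines the means of 2, colours the genotypes, filled points with solid lines drought and open squares with dashed lines normal watering, and shading the added light after ZT8. The solid wt line is the highest in every panel at ZT8, ZT12 and ZT16, ending at 395 CPM for DFR, and UGT78D2 falls between ZT1 and ZT8 in all 6 combinations of genotype and watering.

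Per kilobase of coding sequence, averaged over the 8 libraries of wt drought, LDOX (147 CPM per kb), DFR (138) and GSTF12 (128) were the highest, followed by UGT78D2 (91.4), UGT75C1 (82.5), UGT79B1 (46.6) and 5MAT (20.8). In gi-2 with normal watering UGT78D2 led with 28.5 CPM per kb, and DFR, LDOX and GSTF12 lay close together at 10.5, 12.3 and 10.4. The 2 libraries of a group differed by a median log2 ratio of 0.19 for UGT78D2 and 0.29 to 0.51 for the other 6, and the means of LDOX, DFR and GSTF12 lay closer together than that spread in both groups. The widest pair was UGT79B1 in gi-2 normal ZT8, with 6.45 and 1.68 CPM. Replicate 1 of wt normal ZT16 was above replicate 2 for all 7 genes.

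Time of day was tested with edgeR's quasi-likelihood F-test on the counts, with p-values adjusted by Benjamini-Hochberg over the 19037 genes tested, and a gene is called where the adjusted p is under 0.05. Among all genes, time was called for 28.7% in gi-2 drought, 38.7% in aba1-6 drought, 40.1% in wt drought, 26.2% in gi-2 normal, 36.2% in aba1-6 normal and 38.2% in wt normal. All 7 members were called in each of these except gi-2 normal, where only UGT78D2 was (adjusted p = 2.13e-11 by edgeR); 5MAT missed with 0.0547 and DFR with 0.671. DFR at ZT16 averaged 4.73 times its lowest time in gi-2 drought and 1.65 times in gi-2 normal, against 12.7 and 10.4 times in wt. In gi-2 drought the DFR call was lost without ZT1 replicate 1, ZT16 replicate 1 or ZT16 replicate 2 (adjusted p 0.108, 0.0527 and 0.0787) and when only these libraries were fitted (0.139). LDOX was lost there without 1 of the 8 libraries (0.0535) and 5MAT without 2 (up to 0.0892).

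Whether the daily course of a mutant differed from that of wt was tested with the interaction over the 4 times. For gi-2 it was called for 2 of the 7 under drought and the same 2 under normal watering, against 4.65% and 3.75% of all genes. UGT78D2 had adjusted p = 1.53e-08 under drought and 2.58e-08 under normal watering by edgeR, and UGT75C1 had 0.036 and 0.00512. UGT78D2 in gi-2 was near wt at ZT1 and ZT8 and far below it at ZT12 and ZT16. The UGT75C1 call under drought was lost with the replicate number as a block (adjusted p = 0.0626), without the 2 shallowest libraries (0.0851), and on leaving out any of 11 of the 16 libraries (up to 0.188). For aba1-6 none of the 7 was called under either watering (1.33% and 0.205% of all genes), with adjusted p from 0.822 to 1. A p that misses the threshold does not show that the courses are alike.

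Drought raised the whole branch in wt. Averaged over the 4 times, all 7 members were higher in droughted than in normally watered wt, against 10.2% of all genes, with a median log2 fold change of 1.54 where the median of all genes was 0.01. The largest changes were those of GSTF12 (1.67 ± 0.20 SE, adjusted p = 4.58e-07 by edgeR), LDOX (1.60 ± 0.21, 3.04e-06), DFR (1.54 ± 0.26, 6.2e-05) and UGT75C1 (1.54 ± 0.14, 1.61e-09). UGT79B1 (1.33 ± 0.19), 5MAT (1.24 ± 0.18) and UGT78D2 (0.81 ± 0.08) followed, with adjusted p of 3.83e-06, 2.88e-06 and 3.33e-10. On the linear scale GSTF12 was 3.18 times and UGT78D2 1.75 times its level under normal watering. In bulk tissue of this kind, fewer cells of a type and less RNA per cell cannot be told apart.

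The rise in wt was seen from ZT8 on. At ZT1 5 of the 7 had both drought libraries above both normal ones (22.3% of all genes), but none was called (2.78%); UGT75C1 came nearest with 0.90 ± 0.28 and adjusted p = 0.0569 by edgeR. With the wt replicate numbers as a block, UGT78D2 was called there (0.47, adjusted p = 0.0223). At ZT8 all 7 were called (2.27% of all genes), from 0.91 ± 0.18 for UGT78D2 to 2.16 ± 0.58 for DFR. At ZT12 6 were called (2.39%), all but DFR (1.57 ± 0.49, adjusted p = 0.0549 by edgeR). At ZT16 all 7 were called (1.64%), from 0.85 ± 0.16 for UGT78D2 to 1.999 ± 0.47 for DFR. No member was above the threshold for a drought effect that differed between times in wt (0.819% of all genes), with adjusted p from 0.289 to 0.843. These single-time counts rest on 2 libraries against 2: with any 1 of them left out, 3 to 6 members were called at ZT8, 3 to 6 at ZT12 and 4 to 7 at ZT16, and without the 2 shallowest libraries 3 were called at ZT12.

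In gi-2 drought changed the branch less clearly. All 7 had positive log2 fold changes, with a median of 0.66, but only UGT78D2 was called (0.46 ± 0.08, adjusted p = 0.000488 by edgeR), against 1.64% of all genes. UGT75C1 (0.52 ± 0.16) just missed with adjusted p = 0.0532, and DFR (0.66 ± 0.30) missed with 0.236. The count depended on the fit: 4 members were called by DESeq2 and 6 when only the gi-2 libraries were fitted. At ZT1 5 members (DFR, LDOX, 5MAT, GSTF12 and UGT75C1) had both drought libraries below both normal ones (22.5% of all genes), where at ZT12 and ZT16 all 7 had them above (20.7% and 19.3%). None was called at a single time, where 0.289%, 0.573%, 0.0473% and 0.0368% of all genes were called higher from ZT1 to ZT16. At ZT1 89 of the 19037 genes tested were called lower. No member was called for a drought effect that differed between times (0.404%). Without the gi-2 drought ZT16 library of conflicting labels, UGT78D2 was still the only one called (0.42, adjusted p = 0.00278).

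In aba1-6 drought raised 6 of the 7, against 4.01% of all genes, with a median log2 fold change of 0.67. 5MAT (0.76 ± 0.19, adjusted p = 0.00634 by edgeR), GSTF12 (0.76 ± 0.21, 0.0168) and UGT75C1 (0.57 ± 0.14, 0.00689) were among them, and DFR (0.60 ± 0.26, 0.17) was not. 3 of the 6 calls were fragile. LDOX (0.68 ± 0.21, 0.0427) was lost without any of 10 of the 16 aba1-6 libraries (adjusted p up to 0.192) and UGT79B1 (0.67 ± 0.19, 0.0253) without any of 8 (up to 0.107). GSTF12 was lost without drought ZT12 replicate 1, drought ZT8 replicate 2, normal ZT1 replicate 2 or normal ZT8 replicate 2 (0.0556, 0.0639, 0.054 and 0.0759). All 7 had both drought libraries above both normal ones at ZT12 and at ZT16 (19.7% and 20.5% of all genes), and 2 did at ZT1 and at ZT8 (23.9% and 23.3%). No single time gave a call for a member, where 0.961%, 0.756%, 0.399% and 0.573% of all genes were called higher from ZT1 to ZT16, nor did a drought effect that differed between times (0.184%).

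The difference in drought effect between a mutant and wt was tested directly. For gi-2 it was negative for all 7 members, from -0.35 ± 0.12 for UGT78D2 to -1.02 ± 0.21 for UGT75C1, and 1 of the 7 was called, UGT75C1 (adjusted p = 0.00253 by edgeR), against 3.09% of all genes called lower. UGT78D2 (0.0586), GSTF12 (-0.95 ± 0.32, 0.0697) and LDOX (-0.92 ± 0.33, 0.0898) missed, though with the replicate block UGT78D2 was called (-0.34, adjusted p = 0.0273). For aba1-6 it was also negative for all 7, and 2 were called, UGT75C1 (-0.97 ± 0.20, 0.00519) and UGT78D2 (-0.40 ± 0.12, 0.0474), against 0.914% of all genes. The UGT78D2 call was lost without any of 22 of the 32 libraries (adjusted p up to 0.116) and with another scaling (0.0502 with RLE size factors). Both differences use the same wt libraries, so they are not independent of each other. UGT75C1 was called for both, and remained so without any 1 library (adjusted p up to 0.017).

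**Figure D2:**
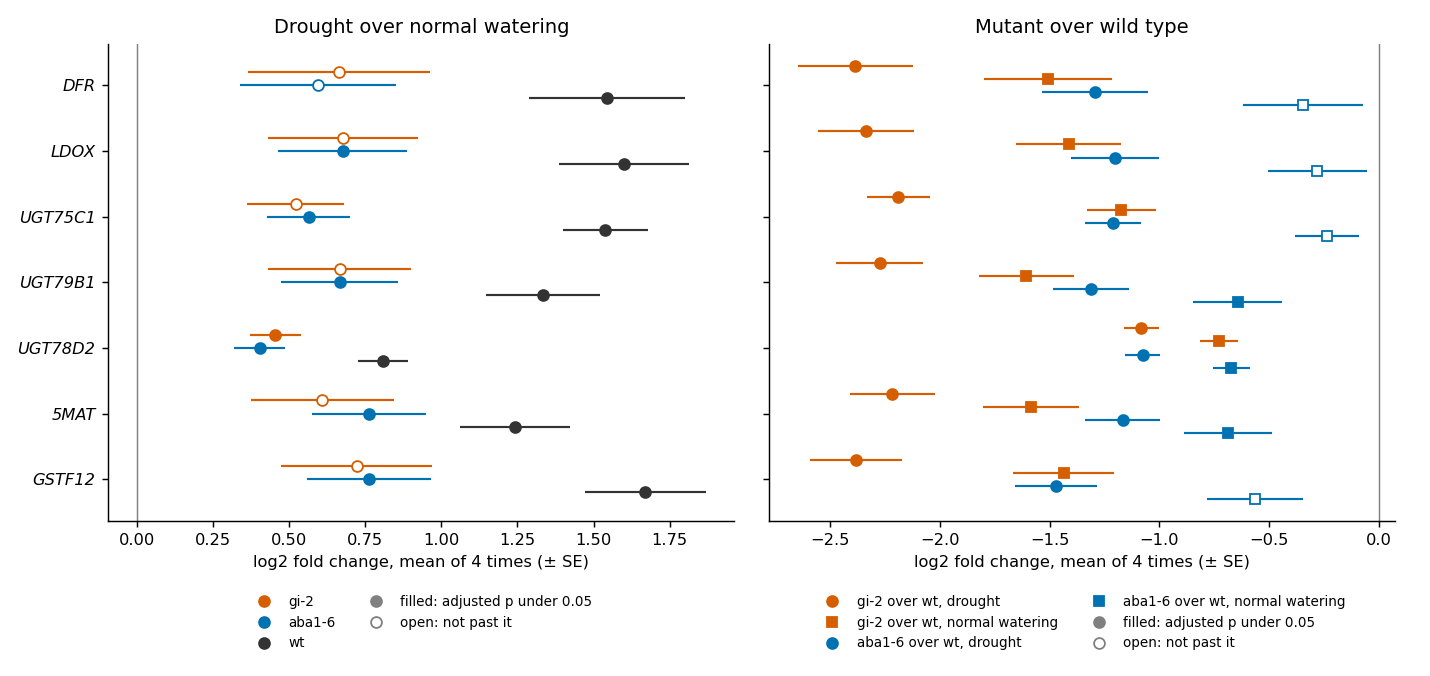
Log2 fold change of each member averaged over the 4 times, with its standard error, for drought over normal watering in each genotype (left) and for each mutant over wt under each watering (right); filled symbols have an adjusted p under 0.05. In wt the drought values run from 0.81 to 1.67, and in gi-2 and aba1-6 from 0.40 to 0.76, while every mutant value on the right is below 0.

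Under drought the gi-2 plants had less of every transcript than wt, though UGT78D2 stood at 0.835 of its wt level at ZT1 and 0.814 at ZT8. All 7 were called lower over the 4 times, against 13.3% of all genes, with a median log2 fold change of -2.27. Averaged over 8 libraries, DFR had 21.3 CPM in gi-2 and 159 CPM in wt, LDOX 23.2 CPM in gi-2 and 157 CPM in wt, and GSTF12 13.3 CPM in gi-2 and 82.4 CPM in wt. The log2 fold changes were -2.39 ± 0.26 for DFR (adjusted p = 1.23e-07 by edgeR), -2.38 ± 0.21 for GSTF12 (1.78e-09), -2.34 ± 0.22 for LDOX (7.62e-09) and -2.19 ± 0.14 for UGT75C1 (1.53e-12). UGT79B1 (-2.27 ± 0.20) and 5MAT (-2.22 ± 0.19) were close to these, and UGT78D2 (-1.08 ± 0.08) changed least. At each of the 4 times both gi-2 libraries lay below both wt libraries for all 7 genes (22.7% to 25.7% of all genes). The gap was widest at ZT16, where all 7 were called (3.25%) and DFR stood at 0.101 of its wt level (-3.31 ± 0.50). All 7 were also called at ZT12 (4.59%), and 5 at ZT1 and at ZT8 (2.92% and 1.99%), where DFR and UGT78D2 missed. With any 1 of the 4 libraries left out, 2 to 4 were called at ZT1 and 0 to 3 at ZT8. Without the library of conflicting labels all 7 were still called over the 4 times, and DFR at ZT16 was at -3.41.

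With normal watering gi-2 was also lower in all 7, against 5.61% of all genes, with a median log2 fold change of -1.44. UGT79B1 (-1.61 ± 0.22, adjusted p = 4.43e-06 by edgeR), 5MAT (-1.59 ± 0.22, 1.92e-06) and DFR (-1.51 ± 0.29, 0.000744) changed most, and UGT78D2 (-0.73 ± 0.09, 2.12e-08) least. By single times, all 7 were called at ZT12 (1.58% of all genes) and at ZT16 (2.13%), and none at ZT1 (0.893%) or ZT8 (0.362%). At ZT8 2 members had both gi-2 libraries below both wt libraries (19.4% of all genes) and 4 overlapped. UGT78D2 had 21.97 and 18.9 CPM in gi-2 there, against 18.7 and 18 CPM in wt. 5MAT had 2.87 and 1.08 CPM in gi-2 and 3.56 and 4.99 CPM in wt there (-1.17 ± 0.51, adjusted p = 0.401 by edgeR), and UGT75C1 had 11.6 and 9.01 CPM in gi-2 and 9.34 and 10.7 CPM in wt (0.02 ± 0.35). The other 5 lay between -0.50 (UGT79B1) and 0.16 (UGT78D2). At ZT16 UGT75C1 had 12.98 and 18.2 CPM in gi-2 and 94.7 and 43.1 CPM in wt (-2.13 ± 0.27). With 1 library left out, 1 to 7 members were called at ZT12 and 6 or 7 at ZT16, and 3 were called at ZT16 when only these libraries were fitted.

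A pair of leaf markers moved the opposite way to the branch in gi-2. CAB3 and LHCA3, light-harvesting genes, were higher in gi-2 than in wt under drought (0.99 ± 0.11 and 0.60 ± 0.08) and under normal watering (1.27 ± 0.11 and 0.55 ± 0.08), while RBCS1A and STOMAGEN were not called. CAB3 varied widely over the 48 libraries, from 67.0 to 6339 CPM. The summed level of the 4 leaf genes was 19420 to 24910 CPM in gi-2 drought and 16180 to 31340 CPM in wt drought. Of 5 seed-coat genes only AHA10, a proton pump of the proanthocyanidin branch, was high enough to test. It was lower in gi-2 than in wt under drought (-0.86 ± 0.22) and higher with drought in wt (0.90 ± 0.22), and the summed seed-coat level was 1.75 to 4.25 CPM in gi-2 drought, 2.11 to 8.08 CPM in wt drought and 0 to 3.73 CPM in wt normal. Of 4 root genes tested NRT2.1 was lower with drought in gi-2 (-3.06 ± 0.39), aba1-6 (-2.72 ± 0.34) and wt (-3.95 ± 0.45), and PYK10 was lower with drought in gi-2 (-0.39 ± 0.09) and higher in gi-2 than in wt with normal watering (0.37 ± 0.09). The part of these genes in the branch results was not tested. BAN, which marks the proanthocyanidin branch itself, was at 0 in 44 of 48 libraries and never above 0.189 CPM.

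In aba1-6, as in gi-2, the droughted plants had less of every transcript than droughted wt. Over the 4 times of drought all 7 were called lower in aba1-6 than in wt, against 11.3% of all genes, with a median log2 fold change of -1.21. GSTF12 (-1.47 ± 0.19, adjusted p = 1.13e-06 by edgeR) and UGT79B1 (-1.31 ± 0.18, 1.9e-06) changed most, and UGT78D2 (-1.08 ± 0.08, 4.5e-14) least. DFR averaged 61.7 CPM in aba1-6 drought and 159 CPM in wt drought (-1.29 ± 0.24, 0.000229). At each time both aba1-6 libraries lay below both wt libraries for all 7 genes (19.4% to 25.7% of all genes). At ZT1 2 members were called (5.24%), at ZT8 5 were (2.78%), at ZT12 6 (2.33%) and 5 at ZT16 (2.02%). With any 1 library left out the counts were 1 at ZT1, 1 to 5 at ZT8, 2 to 5 at ZT12 and, at ZT16, 2 to 4. DFR missed at each single time, with adjusted p from 0.0839 to 0.229. With the replicate block LDOX was also called at ZT16 (-1.30, adjusted p = 0.0346).

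With normal watering 3 of the 7 were called lower in aba1-6 than in wt, against 9.33% of all genes, with a median log2 fold change of -0.57. These were 5MAT (-0.69 ± 0.20, adjusted p = 0.015 by edgeR), UGT79B1 (-0.64 ± 0.20, 0.029) and UGT78D2 (-0.67 ± 0.09, 1.21e-07). The UGT78D2 call held without any 1 library, whereas UGT79B1 was lost without any of 8 of the 16 libraries (adjusted p up to 0.105) and 5MAT without any of 4, among them wt normal ZT16 replicate 1 (0.0602) and wt normal ZT8 replicate 2 (0.0988). GSTF12 (-0.57 ± 0.22) missed with adjusted p = 0.0805 by edgeR, and passed without any of 4 of the 16 libraries (down to 0.0321). LDOX (-0.28 ± 0.23), DFR (-0.35 ± 0.27) and UGT75C1 (-0.24 ± 0.15) missed the threshold, with adjusted p of 0.455, 0.446 and 0.306 by edgeR. UGT78D2 was the 1 member called at ZT1, ZT12 and ZT16 (-0.84 ± 0.17, -0.70 ± 0.17 and -0.59 ± 0.15; 2.12%, 1.02% and 1.15% of all genes), and at ZT8 no member was called (2.86%) unless the replicate block was used (UGT78D2, -0.59, adjusted p = 0.0453). With 1 of the 4 libraries left out, the UGT78D2 call held in 2 of 4 cases at ZT1 (adjusted p up to 0.0702), 1 of 4 at ZT12 (up to 0.176) and 1 of 4 at ZT16 (up to 0.594), and it was lost at ZT16 with library totals as the scaling or when only these libraries were fitted. At ZT16 DFR had 98.4 and 76.7 CPM in aba1-6 and 142 and 55.99 CPM in wt, so the wt pair spanned the aba1-6 pair. The 4 mutant comparisons share the wt libraries of each watering.

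UGT78D2 kept its own course among the 7. Over the 24 group means, on a log2 scale, the other 6 ran together, with Pearson correlations of 0.969 to 0.995 in their 15 pairs. UGT78D2 had 0.672 to 0.780 with each of them. The ratio of UGT78D2 to DFR in the same library shows the difference. It was 11.8 and 8.57 in gi-2 drought at ZT1 and 5.498 and 4.75 in gi-2 normal at ZT1, against 3.602 and 2.88 in wt drought and 2.69 and 3.702 in wt normal. At ZT16 it was 1.38 and 1.41 in gi-2 drought, 0.660 and 0.875 in aba1-6 drought and 0.593 and 0.621 in wt drought. With normal watering at ZT16 it was 2.74 and 2.31 in gi-2, 0.958 and 1.08 in aba1-6 and 1.104 and 1.96 in wt. Both gi-2 libraries were above both wt libraries at ZT1 and ZT16 under each watering, and in droughted wt the ratio was below 1 from ZT8 on.

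**Figure D3:**
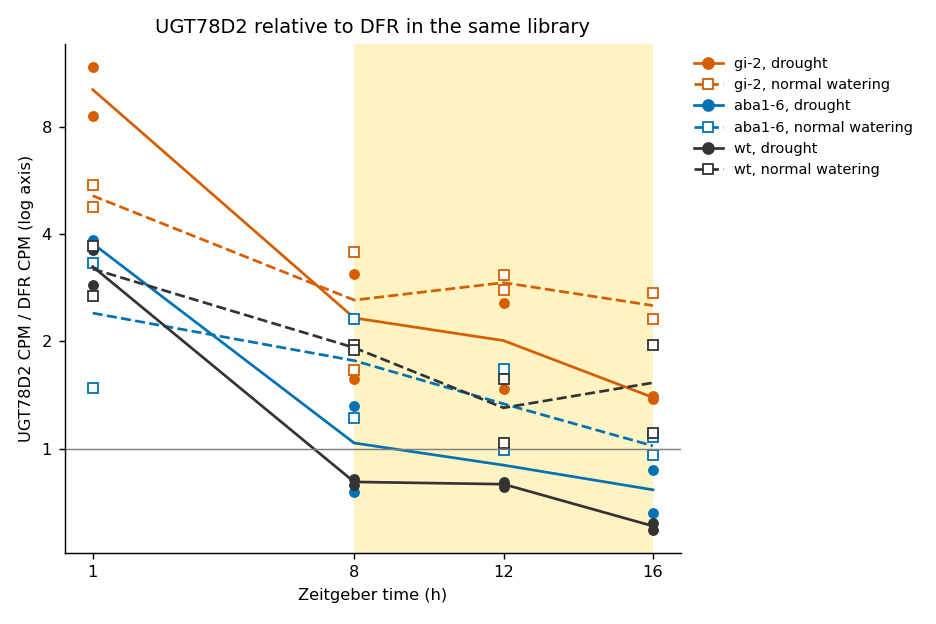
Ratio of UGT78D2 CPM to DFR CPM within each library (log axis) against zeitgeber time in hours; points are libraries, lines the means of 2, colours and symbols as in the plot of levels. The ratio is highest at ZT1 in gi-2 drought (8.57 and 11.8) and lowest at ZT16 in wt drought (0.593 and 0.621).

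For each member the 3 genes with the most similar course over the 24 group means were looked up among all tested genes outside the 7. For DFR, LDOX, UGT75C1, UGT79B1 and 5MAT they were the same 3: F3PH (AT5G07990), the flavonoid 3′-hydroxylase, and the coumaroyltransferase genes 3AT1 (AT1G03940) and 3AT2 (AT1G03495). Their Pearson correlations lay between 0.943 (5MAT and F3PH) and 0.980 (DFR and F3PH). 3AT1 and 3AT2 are close copies, so the split of reads between them is uncertain. GSTF12 had 3AT1 (0.966), 3AT2 (0.959) and AT4G04760 (0.933). UGT78D2 had other neighbours: the chalcone isomerase gene CHI (AT3G55120, 0.961), the related CHIL (AT5G05270, 0.953) and AT3G52470 (0.937). The points share libraries and time, so these values describe the courses and carry no p.

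The rest of the pathway was counted from fixed lists. In droughted against normally watered wt, 9 of 10 early phenylpropanoid and flavonoid genes were higher (10.2% of all genes) and none lower (median 0.62), led by F3PH (1.75 ± 0.25), F3H (1.11 ± 0.15), a hydroxylase that supplies dihydroflavonols, and CHS (0.89 ± 0.18), the chalcone synthase at the entry to flavonoids. Of 6 genes for further decoration and transport 5 were higher, among them 3AT1 (1.37 ± 0.14), 3AT2 (1.17 ± 0.14) and SCPL10 (1.01 ± 0.11), the sinapoyl transferase, and 1 was lower, UGT84A2 (-0.26 ± 0.09). Of 6 flavonol genes 1 was higher, FLS1 (0.37 ± 0.13, adjusted p = 0.0363 by edgeR), which makes flavonols from the substrate of DFR. The medians of these 3 lists were 0.62, 0.72 and 0.02, against 1.54 for the 7 branch genes.

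In droughted gi-2 against droughted wt, 9 of 10 early genes were lower (13.3% of all genes; median -1.07), led by F3PH (-3.04 ± 0.26) and CHS (-2.38 ± 0.19). CHS had 105 and 119.6 CPM at ZT16 in gi-2 drought and 1463 and 989 CPM in wt drought. All 6 decoration genes were lower, led by 3AT1 (-1.89 ± 0.14) and 3AT2 (-1.55 ± 0.14), and 4 of 6 flavonol genes, led by FLS1 (-2.08 ± 0.14). With normal watering 9 early genes were lower (5.61% of all genes) and 1 higher, PAL4 (0.49 ± 0.13), with CHS at -2.27 ± 0.20 and FLS1 at -1.73 ± 0.15. In droughted aba1-6 against droughted wt 9 of 10 early genes were lower (11.3% of all genes; median -0.66), with F3H at -1.46 ± 0.15 and CHS at -0.87 ± 0.18. FLS1 was not called there (-0.29 ± 0.11, adjusted p = 0.0601 by edgeR), nor in aba1-6 with normal watering (0.14 ± 0.13, 0.529). Within gi-2 drought raised 2 early genes (1.64% of all genes), F3H (0.89 ± 0.16) and CHS (0.78 ± 0.20), and within aba1-6 1 (4.01%), CHI (0.33 ± 0.10).

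Of 9 listed activators 6 were tested, and with drought in wt 2 were higher, TT8 and PAP2 (10.2% of all genes), and 1 lower, TTG1 (12.7%). TT8, the bHLH partner of the MYB factors, had 4.71 and 3.65 CPM at ZT16 in gi-2 drought, 16.02 and 8.05 in aba1-6 drought and 22.6 and 43.5 in wt drought, against 10.6 and 6.69 CPM in wt normal. Over the 4 times it was higher with drought in wt (2.38 ± 0.33, adjusted p = 2.11e-06 by edgeR). It was lower than in droughted wt in droughted gi-2 (-2.18 ± 0.29, 7.96e-07) and in droughted aba1-6 (-1.69 ± 0.27, 1.8e-05). With normal watering neither mutant was called for TT8 over the 4 times (-0.89 ± 0.50 in gi-2 and 0.08 ± 0.37 in aba1-6). At ZT8 the wt normal libraries were near 0 (0 and 0.356 CPM), below gi-2 normal (1.91 and 0.721) and aba1-6 normal (1.23 and 1.12). At ZT12 gi-2 normal had 1.01 and 1.09 CPM against 2.08 and 6.59 in wt normal. At ZT16 both wt normal libraries stood above gi-2 normal (0.914 and 2.09) and aba1-6 normal (5.47 and 5.82). The drought effect on TT8 was smaller in aba1-6 than in wt (-1.76 ± 0.47, adjusted p = 0.0371 by edgeR), and for gi-2 the difference missed (-1.29 ± 0.52, 0.142). The wt drought effect and both differences include ZT8, where wt drought had 3.65 and 5.69 CPM and wt normal was near 0. Their sizes are therefore uncertain.

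PAP2, a MYB activator, reached 0.242 and 1.33 CPM at ZT16 in gi-2 drought, 3.33 and 4.95 in aba1-6 drought and 13.4 and 8.46 in wt drought, against 1.85 and 0.778 CPM in wt normal. Several groups had PAP2 at 0 in both libraries, so no fold change is given. The row of PAP1 is shared by other loci and was not used, and MYB113 and MYB114 were too low to test. GL3 was lower over the 4 times in both mutants under drought (-1.12 ± 0.33 in gi-2 and -1.45 ± 0.32 in aba1-6). Its levels were low, with group means of 0.912 to 1.95 CPM in gi-2 drought and 0.370 to 3.46 in aba1-6 drought. At ZT8 gi-2 drought was not lower for GL3, with 0.822 and 1.48 CPM against 0.782 and 1.16 in wt drought. TTG1 was slightly lower with drought in wt (-0.25 ± 0.09). Of 7 repressors 3 were lower with drought in wt over the 4 times (12.7% of all genes), LBD38 (-0.88 ± 0.14), LBD39 (-0.38 ± 0.10) and LBD37 (-0.27 ± 0.07), which are known to respond to nitrate. At ZT1 LBD39 was instead higher, with 16.4 and 18.1 CPM in wt drought against 13 and 12.5 in wt normal. Against droughted wt, LBD38 was higher over the 4 times in droughted aba1-6 (1.12 ± 0.14) and in droughted gi-2 (0.37 ± 0.15, adjusted p = 0.049 by edgeR). At ZT8 droughted gi-2 was instead lower for LBD38, with 5.55 and 6.07 CPM against 6.95 and 6.74 in droughted wt. At ZT1 the droughted gi-2 pair, 8.6 and 6.98 CPM, spanned the droughted wt pair, 8.52 and 7.1 CPM. Over the 4 times MYBL2, a MYB repressor, was not called with drought in wt (0.28 ± 0.17). It was higher in gi-2 than in wt with normal watering (0.50 ± 0.16, 0.0361), and lower in droughted aba1-6 (-0.60 ± 0.17, 0.00854). At ZT1 these directions were reversed, with 22.1 and 15.98 CPM in gi-2 normal against 44.5 and 45.6 in wt normal. Droughted aba1-6 had 59.2 and 44.3 CPM there, against 35.2 and 41.96 in droughted wt. At ZT16 wt had 11.9 and 20 CPM under drought and 6.08 and 1.24 under normal watering. Of the 3 flavonol regulators MYB111 was lower over the 4 times in gi-2 than in wt under drought (-1.53 ± 0.23) and under normal watering (-1.98 ± 0.25). Its gi-2 drought pair at ZT1, 2.09 and 0.291 CPM, spanned the wt drought pair, 0.885 and 0.617 CPM.

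**Figure D4:**
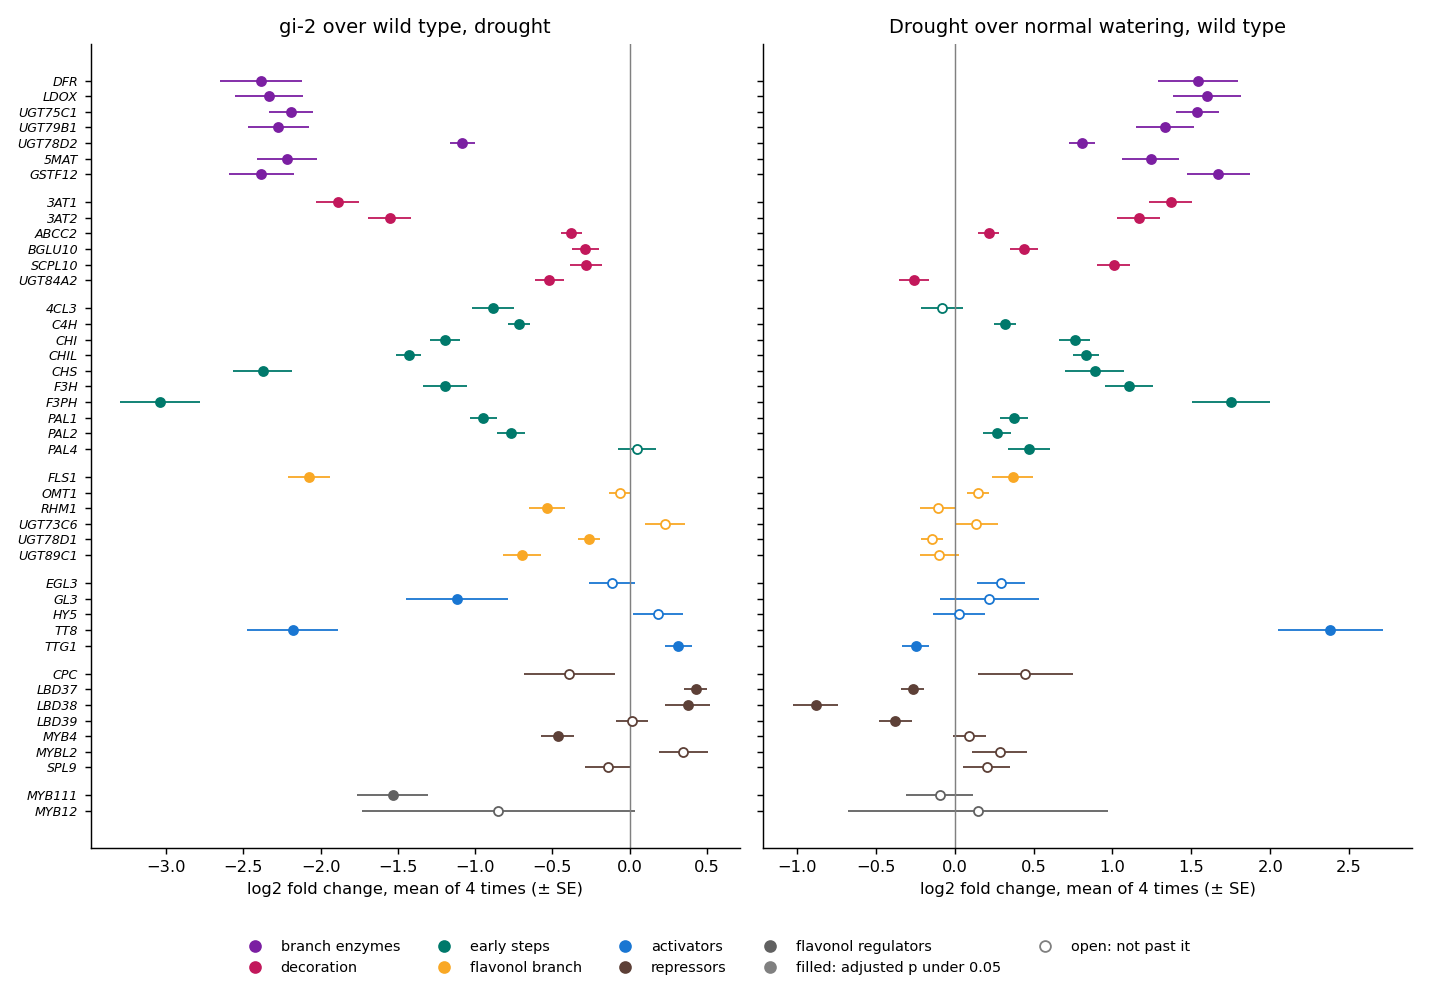
Log2 fold change averaged over the 4 times, with its standard error, of the 7 branch genes and the listed pathway genes, for gi-2 over wt under drought (left) and for drought over normal watering in wt (right); colours are the lists and filled symbols have an adjusted p under 0.05. F3PH is the lowest on the left (-3.04) and TT8 the highest on the right (2.38, with 0 and 0.356 CPM in wt normal ZT8). Genes at 0 in both libraries of a group are left out.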

How the data were processed

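Poly(A) RNA from the 48 libraries was sequenced, and the authors deposited 1 table of estimated counts per gene that are not normalized, with 26988 rows. Bowtie2, RSEM, edgeR and the TAIR10 build are named, without versions, per the submitters' processing notes; strand use is not given in the sources used here. Of the values 98.6% were whole, and low whole values were even in 66.8% to 80.2% of cases per library, a feature whose cause was not tested. The column of gi-2 drought ZT16 replicate 2, deposited as the last and followed by an empty cell by the authors, holds the same kind of estimated count and is read that way. Of the rows 26225 matched 1 locus; 763 did not and held 2.52% of counts, and they stayed in the library totals and tests. Groups follow the sample titles, and the replicates are biological per the labels.

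Counts were rounded and fitted with edgeR 4.0.16 (R 4.3.3, limma 3.58.1) over all 48 libraries with 24 group means, TMM scaling (factors 0.862 to 1.135), the default filter on low counts (19037 genes kept) and robust quasi-likelihood dispersion, with a biological coefficient of variation of 12.1% and 24 residual degrees of freedom. Contrasts averaged 4 times (9 comparisons), took single times (28) or tested times jointly with 3 degrees of freedom (13), and p-values were adjusted by Benjamini-Hochberg over all genes tested. The script was tested on simulated data. Alternatives were 9 other settings, DESeq2 1.42.0 among them, and leaving out each of 48 libraries; where a group then has 1 library, it is assumed to vary like the other groups. Same-numbered replicates deviated together in wt (28 of 28 correlations of deviations over 0.1, median 0.21) but in gi-2 and aba1-6 in 3 of 28 each. The numbers were not taken as pairs in the main fit, so the shared deviation in wt was left in it. Calls that changed with the replicate number as a block are given with their results.

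All 7 members were named with values. From each other list the genes named are at most 4 per comparison, the largest changes past the threshold, with CHS, FLS1, TT8 and MYBL2 always named. UGT84A2 and PAL4 were named after their values were seen, as the single genes of their lists that went the other way. The members and lists were chosen with earlier results of these data known. Promoter and gene positions are from RefSeq TAIR10.1; protein sequences were not used here.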

Additional observations from a re-analysis of the deposited data

Results flagged for a closer look

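The drought effect on UGT75C1 was smaller in gi-2 than in wt, by a log2 difference of -1.02 in the test of the difference itself. It was also smaller in aba1-6 than in wt, by -0.97. The drought effect on UGT78D2 was smaller in aba1-6 than in wt, by -0.40 (adjusted p = 0.0474 by edgeR), a call lost without any of 22 of the 32 libraries (up to 0.116), with RLE factors (0.0502), without the 2 shallowest libraries (0.0622) and when only these libraries were fitted (0.095). Under drought the daily course differed between gi-2 and wt for UGT75C1 (adjusted p = 0.036 by edgeR) and for UGT78D2 (1.53e-08). That of UGT75C1 was lost with the replicate block (0.0626), without the gi-2 drought ZT16 library of conflicting labels (0.0863) and without any of 11 of the 16 libraries in all (up to 0.188). With normal watering it differed between gi-2 and wt for UGT75C1 (0.00512) and for UGT78D2 (2.58e-08). These comparisons share the wt libraries.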

How the results depend on the processing

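No member changed direction past the threshold, and the calls of all 7 for drought in wt, for gi-2 against wt under both waterings and for aba1-6 against wt under drought held in every alternative over the 4 times. Single-time calls rest on 2 libraries a group, and depth limits the lowest member, 5MAT. Joint time tests were not run in DESeq2. Where a count of called members moved, the cause was not tested. The replicate block was fitted within each genotype.

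Fitting only the libraries compared gave, for drought in gi-2, 6 called over the day and 1, 1, 5 and 6 at ZT1, ZT8, ZT12 and ZT16; for drought in aba1-6 1 at ZT1, 2 at ZT12 and 6 at ZT16; for drought in wt 1 at ZT1; for gi-2 against wt with normal watering 1 at ZT1 and 3 at ZT16; for aba1-6 against wt 7 at ZT1 under drought and 2 at ZT12 and 0 at ZT16 with normal watering. It also gave 2 and 1 for the drought difference of gi-2 and aba1-6, 3 for time in gi-2 normal, 4 and 1 for the gi-2 course under drought and normal watering, and 4 for drought by time in gi-2. With no filter the counts were 7 for drought in gi-2 (2, 5, 7 and 6 by time), 1, 5, 6 and 6 by time for drought in aba1-6, 4 for drought in wt at ZT1, 5 and 1 for gi-2 normal at ZT1 and ZT8, 7 for aba1-6 drought at ZT1, and 7 for aba1-6 normal (1, 6 and 4 at ZT8, ZT12 and ZT16). They were 7 and 6 for the drought differences of gi-2 and aba1-6, 6 for time in gi-2 normal, 6 and 7 for the gi-2 courses, and 6, 2 and 4 for drought by time in gi-2, aba1-6 and wt. The counts with no filter need caution. For DFR and drought in gi-2, adjusted p by edgeR was 0.236 in the main fit and 5.91e-11 with no filter. The log2 fold changes were 0.664 and 0.665, and the cause of the fall in p was not tested. DESeq2 called 4 for drought in gi-2, 1 there at ZT16, 3 for the gi-2 drought difference, and 1 each for drought in wt and gi-2 normal at ZT1. A filter of 5 CPM in 2 libraries gave 2 for drought in gi-2, its drought difference and time in gi-2 normal, and 1 for drought in wt at ZT1. Library totals gave 2 for the gi-2 drought difference and 0 for aba1-6 normal at ZT16. The replicate block gave 2 for the gi-2 drought difference and 1 each for drought in wt at ZT1, aba1-6 normal at ZT8 and the gi-2 course under drought. RLE factors gave 1 for the aba1-6 drought difference. Without the 2 shallowest libraries there were 1 for it, 3 for drought in wt at ZT12 and 1 for the gi-2 course under drought. Halved counts gave 1 for drought in wt at ZT1.

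With 1 library left out, the counts over the day were 1 to 2 for drought in gi-2, 3 to 6 in aba1-6, 1 to 5 for aba1-6 normal, and 1 to 5 and 1 to 3 for the drought differences of gi-2 and aba1-6. By time they were 3 to 6, 3 to 6 and 4 to 7 for drought in wt at ZT8, ZT12 and ZT16, 2 to 4 and 0 to 3 for gi-2 drought at ZT1 and ZT8, and 1 to 7 and 6 to 7 for gi-2 normal at ZT12 and ZT16. They were 1, 1 to 5, 2 to 5 and 2 to 4 for aba1-6 drought, and 0 to 1 for aba1-6 normal at ZT1, ZT12 and ZT16. Joint tests gave 4 to 7 and 1 to 3 for time in gi-2 drought and normal, 1 to 2 and 2 to 6 for the gi-2 courses, and 0 to 2 for drought by time in wt.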
